A study of Homo sapiens with 4 samples.

Results

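Long noncoding RNAs are transcripts that are spliced and often polyadenylated like messenger RNAs but are not known to encode a protein. Their names tell mainly where they lie: LINC genes stand between protein-coding genes, -AS genes run antisense to the gene they are named after, -IT genes lie in an intron of it, SNHG genes carry small nucleolar RNAs (snoRNAs) in their introns, and MIR host genes give rise to a microRNA. TGF-β is known to change many such transcripts in epithelial cells, and individual ones act on neighbouring genes, bind proteins or microRNAs, or serve mainly as the source of the small RNA that they carry.

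The transcripts described here are 451 named long noncoding RNAs among the 19775 genes read by the array. They were chosen by the platform annotation's symbol (LINC or SNHG with a number, MIR ending in HG, or an ending of -AS1, -AS2 or -IT1) and by their measured level, a mean of 6.5 or more on the log2 scale over all 4 arrays. Of 1672 genes with such a name, 1221 lay under that level. The members comprised 253 antisense, 172 LINC, 15 MIR host, 6 SNHG and 5 intronic genes. RefSeq held a gene record for 447 of the 451. The level entered the choice, so the levels are a description, while the difference between the groups was not part of the rule. It can still bear on membership near the minimum, where 25 members had 1 group's mean under 6.5. The rule was also set with earlier results of these data known.

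The RNA came from LSTGFBR2, a line of colon cancer epithelial cells with a doxycycline-inducible construct for the TGF-β type II receptor. TGF-β1 arrays (2) held RNA from cells exposed for 16 hours to TGF-β1 at 5 ng/ml, and untreated arrays (2) held RNA from cells with no treatment in their labels. Cells were seeded with or without doxycycline, but no label ties it to particular arrays. The groups also differed in 1 of 2 TGFBR2 probe sets, which read 14.70 and 14.92 in the TGF-β1 arrays and 9.44 and 9.55 in the untreated arrays, so TGF-β1 and receptor induction cannot be told apart in what follows. Whether the replicates were separate cultures is not stated, and the p-values measure only the spread between these arrays. The RNA is from bulk cultures, where fewer cells of a kind and less RNA per cell cannot be told apart. The epithelial markers KRT18, EPCAM and KRT8 had mean levels of 15.1, 14.2 and 14.1. Of 9 such markers LGR5 and CDX2 fell (log2 fold changes of -1.34 and -0.73, limma adjusted p = 0.0136 and 0.0327) and 0 rose, while 3.34% of all genes were called. At an unadjusted limma p under 0.05 there were 4, against 16.7% of all genes. Beside LGR5 and CDX2 these were CDX1, lower at -0.49, and CDH1, higher at 0.56. Among markers of other cell types, 0 of 6 fibroblast, 0 of 5 endothelial and 0 of 5 leukocyte genes were called (2, 0 and 0 at an unadjusted limma p under 0.05), with COL1A1 the brightest at 9.33. Their mean log2 levels were also summed, which does not give an amount of RNA. The sums were 38.8 in TGF-β1 and 41.1 in untreated arrays for fibroblast genes, 29.3 and 28.9 for endothelial genes, and 29.3 and 29.6 for leukocyte genes. The 2 fibroblast genes under 0.05 unadjusted were COL3A1 and LUM, at -1.72 and -0.60, while COL1A1 and COL1A2 had 0.03 and 0.20. COL3A1 read 7.38 and 5.83 in TGF-β1 and 9.18 and 7.48 in untreated arrays, and LUM was dim, with a mean of 3.41.

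Most members changed little, as did most genes, and most members were dim. The members' median level was 7.27, against 7.65 for all genes and 9.35 for the 12856 genes that met the same level minimum. Of the 451 members, 265 lay between 6.5 and 7.5. The change of a member is given below as a log2 fold change, TGF-β1 minus untreated. It reached 2-fold in either direction in 5 members. Its median was -0.02 over members and 0.00 over all genes, and the median spread between replicates was 0.109 and 0.108 (pooled SD of log2 values). Over the members, the replicate arrays correlated at 0.975 in the TGF-β1 group and 0.979 in the untreated group, and arrays of different groups at 0.950 to 0.965.

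**Figure D1:**
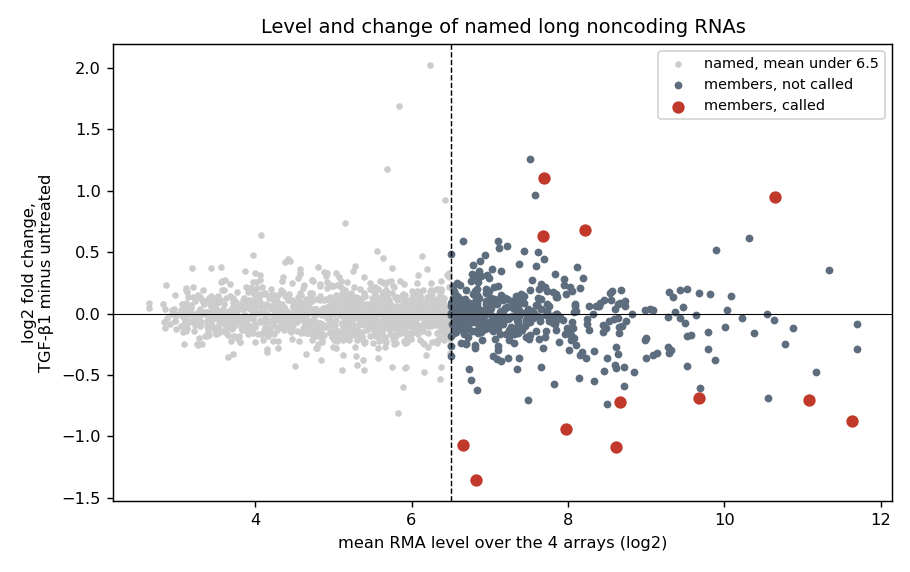
Mean RMA level over the 4 arrays (log2, horizontal axis) and log2 fold change, TGF-β1 minus untreated (vertical axis), for each named long noncoding RNA. The dashed line marks the level minimum of 6.5, pale points lie under it, dark points are members that were not called and large points the 12 called members, which range from -1.36 to 1.10.

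Of the 451 members, 4 rose and 8 fell at a limma p under 0.05 after Benjamini-Hochberg adjustment over all 19775 genes. ATXN1-AS1, LINC00623, ST20-AS1 and RARA-AS1 rose, by 1.55-fold to 2.15-fold. FAM222A-AS1, MNX1-AS1, SNHG4, PXN-AS1, SNHG17, GABPB1-AS1, EPB41L4A-AS1 and TMEM147-AS1 fell, by 1.61-fold to 2.56-fold. The shares called were 0.887% higher and 1.77% lower among members, against 1.87% higher and 1.47% lower among all genes (3.34% in either direction). Among the 12856 genes that met the same level minimum they were 2.62% higher and 2.21% lower. In 82 members both TGF-β1 arrays lay above both untreated arrays, or 18.2% (21.4% of all genes), and in 112 they lay below, or 24.8% (23% of all genes). These shares were 24.9% and 26.8% among the genes that met the same level minimum. For 25 members 1 group's mean was itself under 6.5, and 2 of the called genes, FAM222A-AS1 and SNHG4, were among them, members through their untreated level. The other 426 members held 4 that rose and 6 that fell.

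Calls depended on having all 4 arrays, and this held over all genes as well as among members. With any 1 array left out only 1 residual degree of freedom is left, and FAM222A-AS1 was the single member called without TGF-β1 replicate 1, TGF-β1 replicate 2 or untreated replicate 2, while 0 were called without untreated replicate 1. In the same fits the log2 fold changes ran from 0.588 to 1.183 for the 4 called members that rose. For the 8 that fell they ran from -1.438 to -0.573. All 12 called members kept their direction in each of these 4 fits. This was fixed in advance, because the groups do not overlap in any of the 12.

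The share called was described by level. Between 6.5 and 7.5, 0 of 265 members rose and 2 fell, or 0.755% called, against 1.84% of all genes at those levels. Between 7.5 and 9, 3 of 140 rose and 3 fell, or 4.29%, against 5.44% of all genes. From 9 upward, 1 of 46 rose and 3 fell, or 8.70%, against 5.68% of all genes. No test of these differences in share was made, and the counts are small.

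**Figure D2:**
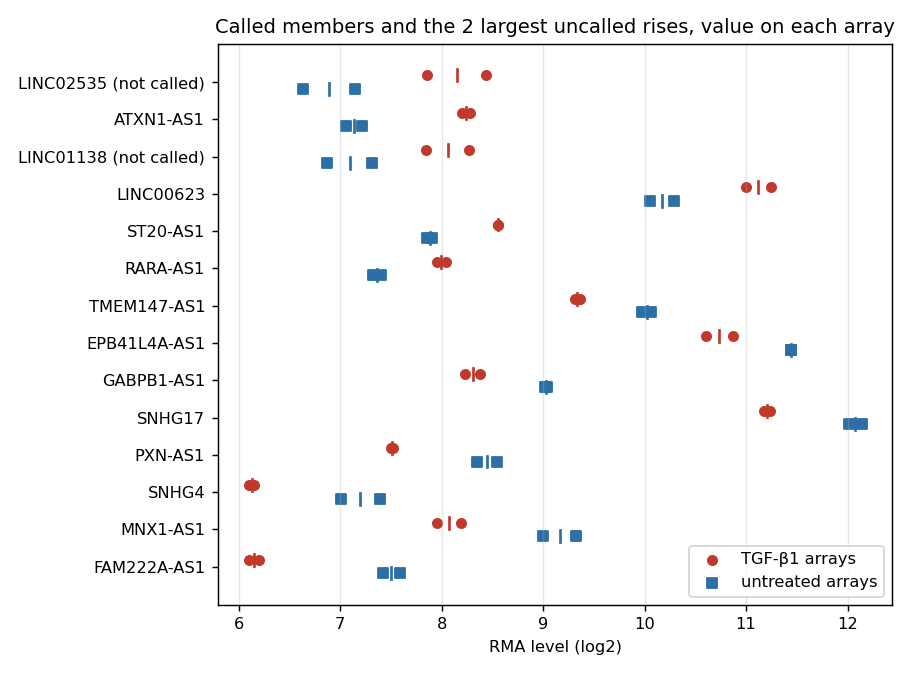
RMA level (log2, horizontal axis) on each TGF-β1 array (circles) and untreated array (squares) for the 12 called members and for LINC02535 and LINC01138, the 2 largest rises that were not called; short bars mark group means. The groups do not overlap in any of the 14, and the replicates of LINC02535 and LINC01138 lie farther apart than those of the others with a similar change.

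The lowest fitted log2 fold change was that of FAM222A-AS1, an antisense transcript of FAM222A, a gene of little known function. It read 6.10 and 6.20 in the TGF-β1 arrays, against 7.59 and 7.42 in the untreated arrays. This was 2.56-fold lower (log2 fold change -1.36 ± 0.110 SE, 2 arrays in each group, limma adjusted p = 0.00506). The TGF-β1 values lay under the array medians of 6.57 to 6.61, so the size of the fall, and with it the rank, is uncertain, and the gene is a member only through its untreated level. FAM222A itself read 6.90 and 7.31 in TGF-β1 and 7.35 and 7.92 in untreated arrays, a log2 fold change of -0.52 ± 0.221 (SE) that did not pass (limma adjusted p = 0.315).

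MNX1-AS1, a transcript that starts beside the homeobox gene MNX1, was 2.12-fold lower. It read 8.19 and 7.96 in TGF-β1 arrays and 9.32 and 9.002 in untreated arrays, with every TGF-β1 value below both untreated values (log2 fold change -1.09 ± 0.148 SE, limma adjusted p = 0.0221). MNX1 itself read 9.78 and 9.65 in TGF-β1 and 9.77 and 9.84 in untreated arrays, where the groups overlapped (log2 fold change -0.09 ± 0.105 SE).

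PXN-AS1 and its sense gene moved in opposite directions. PXN encodes paxillin, an adaptor of focal adhesions. PXN-AS1 read 7.521 and 7.504 in TGF-β1 arrays, against 8.55 and 8.35 in untreated arrays, and was 1.92-fold lower (log2 fold change -0.94 ± 0.111 SE, limma adjusted p = 0.0152). PXN read 10.71 and 10.73 in TGF-β1 arrays, against 9.95 and 10.04 in untreated arrays, and was 1.65-fold higher (log2 fold change 0.72 ± 0.099 SE, limma adjusted p = 0.0222). In neither gene did the groups overlap. RefSeq places PXN-AS1 and PXN on overlapping spans, and the strand and specificity of the probe sets of antisense genes, here and elsewhere, were not tested. Both PXN probe sets read higher with TGF-β1, by 0.72 and 0.78 on the log2 scale, and the mean of the 2 did not pass the threshold. With any 1 array left out PXN had an adjusted p of 0.0999 to 0.157 and PXN-AS1 of 0.0623 to 0.108.

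ATXN1-AS1 and its sense gene rose together. ATXN1 encodes ataxin-1, a protein that binds transcriptional repressors and whose expanded form causes a spinocerebellar ataxia. ATXN1-AS1 read 8.20 and 8.28 in TGF-β1 arrays, against 7.06 and 7.22 in untreated arrays, and was 2.15-fold higher (log2 fold change 1.10 ± 0.108 SE, limma adjusted p = 0.00819). Its second probe set, dimmer at a mean of 6.51, gave a log2 fold change of 0.77 ± 0.141 (SE). ATXN1 read 9.90 and 10.31 in TGF-β1 and 8.84 and 8.88 in untreated arrays, and was 2.37-fold higher (log2 fold change 1.24 ± 0.152 SE, limma adjusted p = 0.0168). All 5 ATXN1 probe sets were higher, by 0.01 to 1.24. RefSeq places the 2 genes on overlapping spans, and whether the probe sets tell them apart was not tested. With 1 array left out the adjusted p was 0.0525 to 0.0741 for ATXN1-AS1 and 0.0345 to 0.133 for ATXN1, which passed without TGF-β1 replicate 1.

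The promoter windows of 5 called members are printed because these genes changed and a start was on record for them. RefSeq (GRCh38.p14) held a window, 250 bases before to 50 after the gene's start, for 342 members and for 11 of the 12 called ones, all but ATXN1-AS1. Capitals mark 3 motifs searched on both strands: the E-box CACGTG, which MYC and related factors bind, the SMAD box CAGAC, and the AP-1 sites TGACTCA and TGAGTCA. FAM222A-AS1, with 2 E-boxes, is shown as the called member with the lowest adjusted p, PXN-AS1 for its opposite sense gene, SNHG17 as the brightest gene that fell, and ST20-AS1 and RARA-AS1 as genes that rose.
FAM222A-AS1 (chr12:109773438-109773737, minus strand): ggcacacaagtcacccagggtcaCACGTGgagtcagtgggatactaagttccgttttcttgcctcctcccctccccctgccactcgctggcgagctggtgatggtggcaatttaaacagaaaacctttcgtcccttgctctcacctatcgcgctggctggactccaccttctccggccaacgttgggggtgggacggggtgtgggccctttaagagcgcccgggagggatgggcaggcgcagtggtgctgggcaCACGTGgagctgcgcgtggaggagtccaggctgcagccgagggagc
PXN-AS1 (chr12:120201041-120201340, plus strand): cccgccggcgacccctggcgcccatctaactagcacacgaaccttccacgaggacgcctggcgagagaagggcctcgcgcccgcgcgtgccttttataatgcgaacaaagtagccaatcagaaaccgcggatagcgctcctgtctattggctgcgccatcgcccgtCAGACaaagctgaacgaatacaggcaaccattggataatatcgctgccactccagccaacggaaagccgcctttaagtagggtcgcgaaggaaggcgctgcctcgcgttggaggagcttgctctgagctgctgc
SNHG17 (chr20:38435279-38435578, minus strand): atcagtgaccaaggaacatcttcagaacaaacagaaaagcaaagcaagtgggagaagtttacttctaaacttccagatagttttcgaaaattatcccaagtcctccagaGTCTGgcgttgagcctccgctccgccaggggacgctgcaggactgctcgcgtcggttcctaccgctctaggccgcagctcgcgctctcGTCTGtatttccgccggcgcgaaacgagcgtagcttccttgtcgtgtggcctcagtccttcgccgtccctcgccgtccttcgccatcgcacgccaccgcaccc
ST20-AS1 (chr15:79922521-79922820, plus strand): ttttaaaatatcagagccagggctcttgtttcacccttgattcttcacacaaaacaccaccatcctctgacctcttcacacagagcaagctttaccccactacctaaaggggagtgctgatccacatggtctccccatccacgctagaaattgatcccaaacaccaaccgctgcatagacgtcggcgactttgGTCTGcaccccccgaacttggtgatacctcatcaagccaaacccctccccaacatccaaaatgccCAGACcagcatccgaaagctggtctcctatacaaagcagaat
RARA-AS1 (chr17:40343087-40343386, minus strand): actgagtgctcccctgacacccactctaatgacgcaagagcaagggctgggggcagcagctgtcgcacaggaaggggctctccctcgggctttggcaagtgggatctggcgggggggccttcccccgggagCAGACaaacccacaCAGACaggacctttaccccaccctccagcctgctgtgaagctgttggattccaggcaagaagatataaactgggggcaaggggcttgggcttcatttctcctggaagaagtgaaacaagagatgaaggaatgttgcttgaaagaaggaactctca
An E-box was in 1 of 8 windows of genes that fell, FAM222A-AS1, and in 0 of 3 of genes that rose, against 7.43% of all 27305 windows. A SMAD box was in 4 of 8 and 2 of 3, against 45.0% of all windows, and an AP-1 site was in 0 of 8 and 0 of 3, against 4.92%. Among the 342 members the shares were 8.19%, 41.5% and 5.26%. These matches are a description of letters in 1 window and are no evidence of binding.

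The other antisense genes that fell were named after genes that did not pass the test. GABPB1-AS1, antisense to the β subunit gene of the transcription factor GABP, read 8.38 and 8.23 in TGF-β1 and 9.04 and 9.02 in untreated arrays (log2 fold change -0.72 ± 0.104 SE, limma adjusted p = 0.0264). All 6 of its probe sets were lower, by -0.34 to -0.72, while the mean of the 6 did not pass. GABPB1 had a log2 fold change of -0.10 ± 0.127 (SE) and its groups overlapped. GABPB1-IT1, an intronic transcript of the same gene, read 6.80 and 6.54 in TGF-β1 and 6.96 and 6.94 in untreated arrays, and its log2 fold change of -0.28 ± 0.120 (SE) did not pass (limma adjusted p = 0.318).

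EPB41L4A-AS1 was among the brightest members. It read 10.60 and 10.87 in TGF-β1 arrays, against 11.44 and 11.44 in untreated arrays, and was 1.63-fold lower (log2 fold change -0.70 ± 0.121 SE, limma adjusted p = 0.0409). Its second probe set gave -1.01 ± 0.140 (SE). EPB41L4A, a band 4.1 family gene, read 6.24 on average and had a log2 fold change of 0.12 ± 0.145 (SE).

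TMEM147-AS1 read 9.31 and 9.36 in TGF-β1 arrays and 10.06 and 9.98 in untreated arrays, and was 1.61-fold lower (log2 fold change -0.68 ± 0.099 SE, limma adjusted p = 0.0265). Its dimmer probe set gave -0.41 ± 0.111 (SE). TMEM147, which encodes a membrane protein of the endoplasmic reticulum, had a mean of 12.7 and a log2 fold change of -0.17 ± 0.104 (SE).

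**Figure D3:**
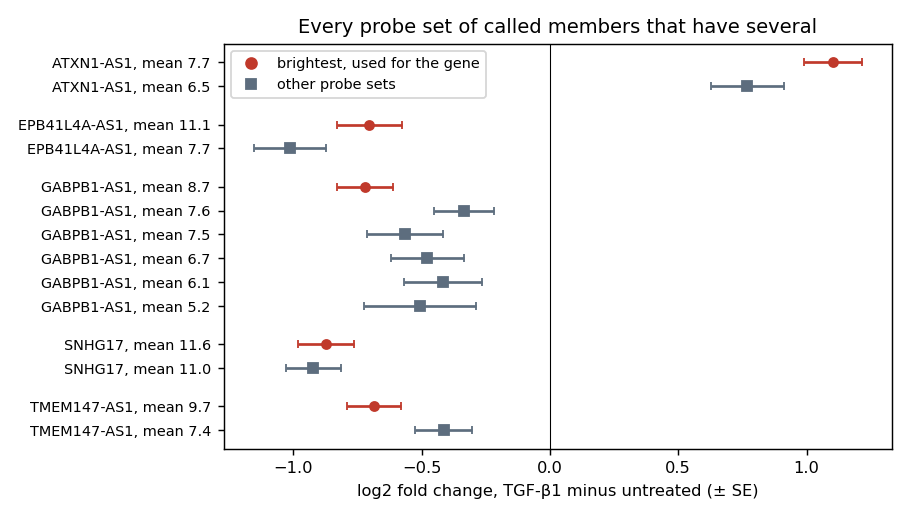
Log2 fold change, TGF-β1 minus untreated, with its SE, of every probe set of the 5 called members that have several; each row gives the gene and the probe set's mean level, circles mark the brightest probe set and squares the others. All probe sets of a gene lie on the same side of 0, from -0.34 to -1.01 in the genes that fell and from 0.77 to 1.10 in ATXN1-AS1.

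Both antisense genes that rose beside ATXN1-AS1 had sense genes without a called change. ST20-AS1 read 8.56 and 8.55 in TGF-β1 arrays, against 7.91 and 7.85 in untreated arrays, a 1.60-fold rise (log2 fold change 0.68 ± 0.097 SE, limma adjusted p = 0.0251). ST20 had a log2 fold change of 0.14 ± 0.098 (SE). RARA-AS1 read 8.04 and 7.95 in TGF-β1 arrays and 7.33 and 7.40 in untreated arrays, a 1.55-fold rise (log2 fold change 0.63 ± 0.101 SE, limma adjusted p = 0.0338). RARA, the retinoic acid receptor α gene, had a log2 fold change of 0.05 ± 0.111 (SE). The next measured gene on 1 side of RARA-AS1, the replication licensing gene CDC6, fell by 0.57 on the log2 scale (limma adjusted p = 0.0432). GJD3, on the other side, had -0.11 and did not pass. The next measured genes beside the other called members did not pass either. CDC6 was picked with its value in view, and a link to RARA-AS1 was not tested.

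Over all antisense and intronic members, 237 of 258 had a measured gene of the parent name, 235 different genes. Of these sense genes 6 rose and 2 fell, or 3.40%, against 3.34% of all genes, and their median log2 fold change was 0.02. In 2 pairs both partners were called, PXN and ATXN1 with their antisense genes. The remaining called sense genes were ARRDC3 (2.72-fold higher), TAPT1 (2.41-fold higher), MCF2L (1.74-fold higher), NOP14 (1.76-fold lower), NIFK (1.73-fold lower) and CYMP, a chymosin pseudogene (4.98-fold higher by the fit, of uncertain size because its untreated values lay under the array medians). NOP14 and NIFK encode nucleolar proteins. With any 1 array left out, 1 to 3 of the 8 were called, and ARRDC3 was called in all 4 such fits.

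The antisense partners of these 6 did not pass. ARRDC3-AS1 read 6.63 and 6.70 in TGF-β1 and 6.82 and 6.74 in untreated arrays, while ARRDC3, an arrestin family gene, read 8.76 and 8.89 in TGF-β1 and 7.42 and 7.34 in untreated arrays. CYMP-AS1 read 6.76 and 6.68 in TGF-β1 and 6.78 and 6.79 in untreated arrays, while CYMP read 7.56 and 8.24 in TGF-β1 and 5.395 and 5.776 in untreated arrays. TAPT1-AS1 had a log2 fold change of 0.51 ± 0.230 (SE), MCF2L-AS1 of -0.42 ± 0.098, NOP14-AS1 of 0.35 ± 0.147 and NIFK-AS1 of -0.04 ± 0.106. MCF2L-AS1 came closest to the threshold (limma adjusted p = 0.0867).

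**Figure D4:**
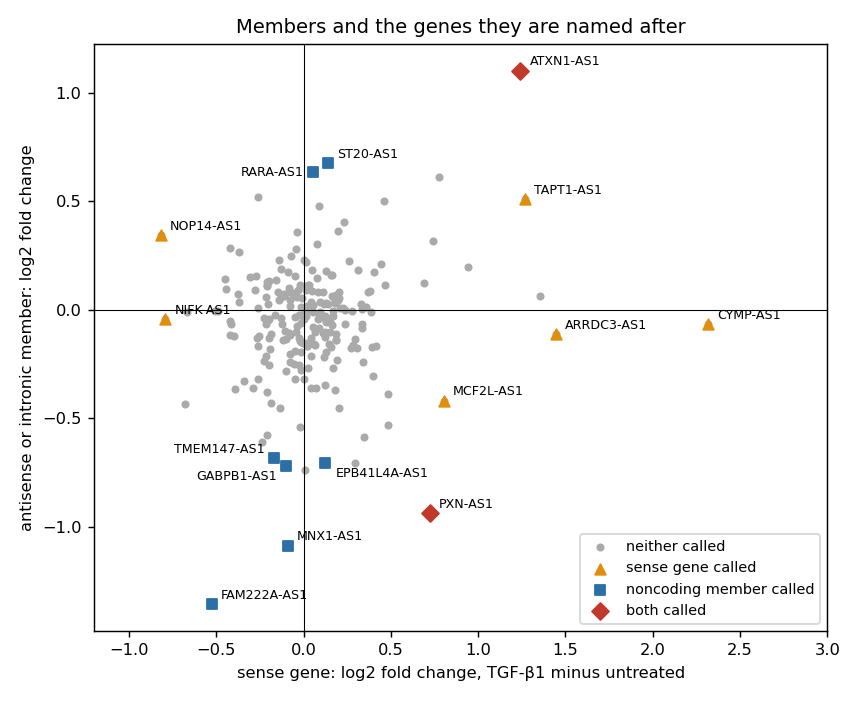
Log2 fold change, TGF-β1 minus untreated, of the gene that a member is named after (horizontal axis) and of the antisense or intronic member (vertical axis) for 237 pairs. Diamonds mark the 2 pairs called on both sides, PXN with opposite signs and ATXN1 with the same sign; squares mark members and triangles sense genes called alone.

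Of the 6 SNHG members, SNHG4 and SNHG17 fell and 0 rose, while 1.47% of all genes fell. At an unadjusted limma p under 0.05, 3 were lower and 0 higher, against 8.54% and 8.18% of all genes, and the median log2 fold change was -0.38. SNHG4 is a member only through its untreated level, and among the other 5, 1 fell and 0 rose with a median of -0.29. SNHG17, which carries snoRNAs of the SNORA71 family, was the brightest called member. It read 11.23 and 11.17 in TGF-β1 arrays, against 12.14 and 12.01 in untreated arrays, and was 1.83-fold lower (log2 fold change -0.87 ± 0.104 SE, limma adjusted p = 0.0153). Its second probe set read 10.49 and 10.50 in TGF-β1 and 11.47 and 11.36 in untreated arrays, a log2 fold change of -0.92 ± 0.106 (SE). The groups stood apart on both probe sets.

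SNHG4 read 6.15 and 6.10 in TGF-β1 arrays, against 7.005 and 7.390 in untreated arrays (log2 fold change -1.07 ± 0.147 SE, limma adjusted p = 0.0222). Its TGF-β1 values lay under the array medians. SNHG4 overlaps MATR3, which encodes the RNA-binding protein matrin 3, and MATR3 was also lower by the 1 probe set annotated to it alone (9.33 and 9.41 in TGF-β1, 10.22 and 10.67 in untreated arrays, log2 fold change -1.07 ± 0.162 SE, limma adjusted p = 0.0296). Whether these probe sets read separate transcripts was not tested.

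The other SNHG members did not pass. SNHG19 read 10.79 and 11.08 in TGF-β1 arrays and 11.41 and 11.41 in untreated arrays (log2 fold change -0.47 ± 0.126 SE, limma adjusted p = 0.117). SNHG32, the brightest of all members, read 11.46 and 11.65 in TGF-β1 and 11.73 and 11.95 in untreated arrays (log2 fold change -0.29 ± 0.128 SE). SNHG28 and SNHG33 had log2 fold changes of -0.11 and 0.21.

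Proteins that package snoRNAs were examined beside their host genes. Of 13 measured snoRNP proteins and assembly factors, 1 fell and 0 rose, with a median log2 fold change of -0.38, while 3.34% of all genes were called. At an unadjusted limma p under 0.05 there were 9, against 16.7% of all genes in either direction. The gene that fell was GAR1, a subunit of H/ACA particles, with a log2 fold change of -0.62 and an adjusted p of 0.0333 (0.143 to 0.193 with 1 array left out). NAF1, an H/ACA assembly factor, and NOP58, a C/D core protein, had log2 fold changes of -0.55 and -0.47 and did not pass. None of 6 nonsense-mediated decay factors, which limit many snoRNA host transcripts, was called by limma (1 at an unadjusted p under 0.05), and their median was -0.02.

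**Figure D5:**
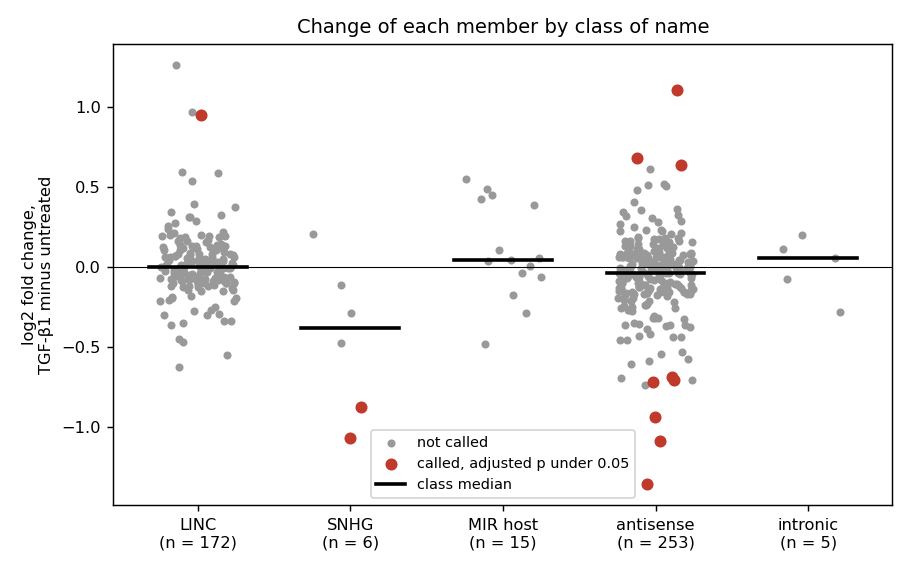
Log2 fold change, TGF-β1 minus untreated, of each of the 451 members by class of name, with horizontal jitter; bars mark class medians and large points the 12 called members. The SNHG median is -0.38, and the medians of the other classes lie between -0.04 and 0.06.

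Among 172 LINC members 1 rose and 0 fell, or 0.581% called, against 3.34% of all genes. At an unadjusted limma p under 0.05, 10 were higher and 11 lower, against 8.18% and 8.54% of all genes. LINC00623 read 11.001 and 11.243 in TGF-β1 arrays, against 10.06 and 10.29 in untreated arrays, a 1.93-fold rise (log2 fold change 0.95 ± 0.136 SE, limma adjusted p = 0.0254). It is read by an _x_at probe set, a type that can also bind related transcripts, and 22 members are read by such a probe set. LINC02535 had the largest rise of any member, yet did not pass. It read 8.44 and 7.85 in TGF-β1 arrays and 7.14 and 6.63 in untreated arrays (log2 fold change 1.26 ± 0.242 SE, limma adjusted p = 0.0524). Replicate 1 was the higher one in both groups.

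LINC01138 read 7.84 and 8.27 in TGF-β1 and 6.87 and 7.32 in untreated arrays (log2 fold change 0.96 ± 0.201 SE, limma adjusted p = 0.0650). Here replicate 2 was higher in both groups, and its 2 other probe sets, with means of 5.65 and 3.33, gave 0.01 and 0.15. LINC01711, LINC02591 and LINC01503 had log2 fold changes of 0.59, 0.59 and 0.54 (limma adjusted p = 0.101, 0.0804 and 0.0746). LINC02591 is a member only through its TGF-β1 level. At the low end, LINC01703 and LINC01224 had -0.62 and -0.55 (limma adjusted p = 0.152 and 0.285).

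Of the 15 microRNA host genes 0 were called by limma, against 3.34% of all genes. At an unadjusted limma p under 0.05, 5 were higher and 1 lower, against 8.18% and 8.54% of all genes. MIR3667HG read 7.44 and 7.54 in TGF-β1 arrays and 7.17 and 6.71 in untreated arrays (log2 fold change 0.55 ± 0.166 SE, limma adjusted p = 0.159). MIR181A2HG read 6.54 and 6.97 in TGF-β1 and 6.14 and 6.39 in untreated arrays (0.48 ± 0.171), and is a member only through its TGF-β1 level. MIRLET7BHG read 8.02 and 7.81 in TGF-β1 and 7.38 and 7.56 in untreated arrays (0.45 ± 0.123). In all 3 the groups stood apart. MIR210HG, host of a hypoxia-induced microRNA, and MIR31HG had log2 fold changes of 0.42 and 0.39. MIR550A3HG was the lowest, at 8.58 and 8.64 in TGF-β1 and 9.12 and 9.06 in untreated arrays (-0.48 ± 0.099, limma adjusted p = 0.0626). MIR200CHG, host of 2 microRNAs that restrain the ZEB factors of epithelial-mesenchymal transition, read 8.77 and 8.44 in TGF-β1 and 8.63 and 8.37 in untreated arrays, and its groups overlapped (0.11 ± 0.154).

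The microRNAs themselves were not measured, and a host transcript's level need not follow its microRNA. RefSeq (GRCh38.p14) places a mature microRNA, on either strand, inside the span of at least 13 of the 15 hosts. The sequences below are a choice from 6 of these hosts named above, and other mature microRNAs within the same spans are left out. The seed, bases 2 to 8 from the 5′ end, is in capitals, and microRNAs of 1 seed stand side by side. The 5p products miR-181a-5p and miR-181b-5p of MIR181A2HG share a seed, as do let-7a-5p and let-7b-5p of MIRLET7BHG, and miR-550a-3p shares its seed with miR-200c-5p.
hsa-miR-181a-5p (from MIR181A2HG): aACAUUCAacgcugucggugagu
hsa-miR-181b-5p (from MIR181A2HG): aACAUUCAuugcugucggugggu
hsa-let-7a-5p (from MIRLET7BHG): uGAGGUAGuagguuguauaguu
hsa-let-7b-5p (from MIRLET7BHG): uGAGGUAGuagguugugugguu
hsa-miR-550a-3p (from MIR550A3HG): uGUCUUACucccucaggcacau
hsa-miR-200c-5p (from MIR200CHG): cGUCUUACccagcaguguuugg
hsa-miR-200c-3p (from MIR200CHG): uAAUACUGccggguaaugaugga
hsa-miR-141-3p (from MIR200CHG): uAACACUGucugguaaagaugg
hsa-miR-31-5p (from MIR31HG): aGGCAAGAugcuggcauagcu
hsa-miR-210-3p (from MIR210HG): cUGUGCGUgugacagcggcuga
Of 14 measured proteins that process or act with microRNAs, 0 were called by limma (2 at an unadjusted p under 0.05) and the median log2 fold change was -0.02. Among all genes 3.34% were called and 16.7% had an unadjusted limma p under 0.05. Those 2 were AGO4, an Argonaute protein, at 0.50 and XPO5, which exports precursors from the nucleus, at -0.47 (limma adjusted p = 0.0778 and 0.0731).

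Several larger antisense changes did not pass the threshold. ELFN1-AS1 read 8.270 and 8.002 in TGF-β1 arrays and 9.21 and 8.53 in untreated arrays (log2 fold change -0.74 ± 0.229 SE, limma adjusted p = 0.171). DHRS4-AS1, a bright transcript, read 10.36 and 10.05 in TGF-β1 and 11.03 and 10.77 in untreated arrays (-0.69 ± 0.151, limma adjusted p = 0.0731). SP2-AS1 had -0.71 ± 0.299 and PRRT3-AS1 -0.61 ± 0.285, and the groups of PRRT3-AS1 overlapped. FOXP4-AS1 and RBM26-AS1 had -0.59 ± 0.121 and -0.58 ± 0.193. FAM131B-AS2 read 10.79 and 10.44 in TGF-β1 and 10.03 and 9.97 in untreated arrays (0.61 ± 0.138, limma adjusted p = 0.0786). SSTR5-AS1 read 10.43 and 9.88 in TGF-β1 and 10.07 and 9.20 in untreated arrays, an overlap with a value of 0.52 ± 0.310. The 7 measured sense genes among these, all but that of DHRS4-AS1, had log2 fold changes from -0.26 for SSTR5 to 0.78 for FAM131B and did not pass, with SP2 and FAM131B under 0.05 unadjusted.

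Among the brightest members not yet given, FGD5-AS1 read 11.72 and 11.58 in TGF-β1 arrays and 11.85 and 11.62 in untreated arrays (log2 fold change -0.09 ± 0.122 SE). PRR34-AS1 read 11.52 and 11.51 in TGF-β1 and 11.24 and 11.08 in untreated arrays (0.36 ± 0.106, limma adjusted p = 0.152). The intronic members had log2 fold changes between -0.28 and 0.20, AGPAT4-IT1 being the highest. By limma 0 of 5 were called, against 3.34% of all genes, and 0 had an unadjusted p under 0.05, against 16.7%.

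The level minimum ran through a dense range. Just above it lay RIPOR3-AS1, MZF1-AS1, LINC00244 and SNAI3-AS1, with means of 6.503 to 6.506 and log2 fold changes of -0.35 to 0.08. Just under it lay LINC02287, LINC02260, ALMS1-IT1 and PHC2-AS1, with means of 6.493 to 6.4997 and log2 fold changes of -0.32 to 0.06. Under the minimum, 5 of 1221 named genes rose and 0 fell, or 0.41% and 0%, against 1.87% and 1.47% of all genes. At an unadjusted limma p under 0.05, 35 were higher and 22 lower, against 8.18% and 8.54% of all genes. The 5 called genes, named after their values were seen, were LINC01854 (log2 fold change 2.03), LINC00525 (1.69), SH3PXD2A-AS1 (0.93), LINC01619 (0.74) and TDRD6-AS1 (0.64). LINC01854 read 6.994 and 7.497 in TGF-β1 arrays and 4.98 and 5.46 in untreated arrays, so it and LINC00525 exceeded every member's rise and stayed outside through their untreated level.

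Other well-known noncoding RNAs that the names above do not cover mostly did not pass. Of 30 measured, 0 rose and 1 fell (1 higher and 4 lower at an unadjusted limma p under 0.05), or 3.33% called against 3.34% of all genes, with a median log2 fold change of 0.01. TRG-AS1, on the same list, is covered by name and lay under the level minimum with a mean of 5.31. DLEU1, a transcript from a region often deleted in leukaemia, averaged 9.81 in TGF-β1 arrays and 10.7 in untreated arrays (log2 fold change -0.85, limma adjusted p = 0.0397, and 0.0635 to 0.200 with 1 array left out). The abundant MALAT1, NORAD and ZFAS1 had log2 fold changes of 0.33, 0.23 and -0.21, and DANCR, a further snoRNA host, had -0.63 (limma adjusted p = 0.0773).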

How the data were processed

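Total RNA from 4 samples was read on HG-U133 Plus 2.0 arrays. Per the series' design text, the authors applied RMA (background correction, quantile normalization, summarization per probe set), and the deposited values, 2.48 to 15.34, fit log2 units. No RMA version is given here. RMA removes a shift common to most transcripts and gives no detection call, and the number of arrays limits the precision.

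Of 54675 probe sets, 62 are controls, 41091 others have 1 symbol in the platform annotation, 1801 have several and 11721 have none. Only those with 1 symbol were used, which leaves out 130 probe sets where a name of the chosen kind stands beside others. The Entrez ID of 41037 of these was in RefSeq, and the current symbol was taken from there. A gene was read by its brightest probe set on average. All 19775 genes were fitted with limma 3.58.1 in R 4.3.3 (lmFit, eBayes without trend, two-sided, no covariate, 6.13 degrees of freedom), and p-values were adjusted by Benjamini-Hochberg over all of them. The fit was tested on simulated data. An exact permutation test of 2 arrays against 2 cannot pass the threshold and was not used.

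The members, lists and tests were chosen with earlier results of these data known. Named are all called members, the 8 highest and 8 lowest not called, the 6 brightest, 4 on each side of the level minimum, the 2 largest changes per class, sense genes of named members, and called list genes. Others, such as further microRNA hosts, unnamed list genes and neighbours, were picked with their values in view. Alternatives tried were level filters, an intensity trend, 2 centrings, averaged or separate probe sets, a replicate block, each array left out, unadjusted p-values, the study's signature rule, and other level minimums.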

Additional observations from a re-analysis of the deposited data

How the results depend on the processing

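The main counts were 4 members higher, 8 lower, 8 sense genes and 2 genes of the other lists called. Over all genes 660 were called in that fit, 282 with every probe set tested and 852 with the 6.5 filter. The intensity trend called 802 genes, the study's signature rule with its mirror 274 and the replicate block 561. Testing every probe set gave 1 higher and 5 lower, 6 of the 12 called members kept and 0 list genes. Restricting the test to genes at or above 6.5 gave 5 higher and 11 lower, kept all 12, and called 13 sense genes and 4 list genes. The intensity trend also called 4 list genes. Unadjusted p-values gave 26 of the 451 members higher, 41 lower, 51 of 235 sense genes and 17 list genes. By that threshold 8.18% of all genes were higher and 8.54% lower, or 16.7% in either direction. The study's signature rule and its mirror gave 2 higher and 3 lower, with 4 of the 12 kept, 4 sense genes and 0 list genes. The replicate block gave 5 higher and 9 lower, kept 10 of the 12 (EPB41L4A-AS1 and RARA-AS1 were lost), and called 1 list gene, which was neither GAR1 nor DLEU1, the 2 called without it. LINC02535 and LINC01138 passed with the block (limma adjusted p = 0.0222 and 0.0293), and LINC02535 also passed with the 6.5 filter (0.0432) and the trend (0.0459). Same-numbered arrays deviated together (correlation 0.364 across genes), which with 2 pairs is only a hint of pairing. With 1 array left out, 0 members were higher, 0 to 1 lower, 0 to 1 of the 12 kept, 1 to 3 sense genes and 0 list genes called. For named genes with a value near 0 the sign turned in some of these fits, namely FGD5-AS1 (-0.199 to 0.028), LINC02287 (-0.067 to 0.191, with -0.023 between), RIPOR3-AS1 (-0.062 to 0.043, with 0.035 between) and SNAI3-AS1 (-0.002 to 0.169); the cause was not tested. Level filters of 5, both centrings, averaged probe sets and member minimums of 6 and 7.5 kept the member counts within 1.5 times. Dim levels limit how far falls can be sized.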

Other observations

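Many snoRNA host genes could not be counted among the SNHG members because their probe sets carry several symbols. There were 21 probe sets annotated to an SNHG gene together with snoRNA genes only, covering 14 SNHG genes; they were looked at after the members' values were seen and are not assigned to a gene. Their mean levels ran from 5.46 to 13.32, with a median of 10.01. Of the 21, 19 read lower in the TGF-β1 arrays than in the untreated arrays on average, with a median log2 fold change of -0.51 and a range of -1.12 to 0.20. At a limma p adjusted over all 54613 probe sets, 2 fell and 0 rose, and at an unadjusted p under 0.05, 14 were lower and 0 higher. Over all probe sets 0.304% fell by the adjusted and 6.87% by the unadjusted threshold, and the median was -0.01. Several of the 21 read the same host gene, so they are not independent of each other.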
